A study of Mus musculus with 27 samples.

Results

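Doxycycline-treated mouse embryonic stem cells carrying a BglG-GFP-SPOC fusion were compared with doxycycline-treated cells carrying BglG-GFP, in 9 of the 27 RNA-seq libraries of the series. The SPOC line gave 5 libraries and the GFP line gave 4, all labelled with doxycycline alone at 1 ug/mL for 24 h, and were taken by those labels. Both lines derive from TX1072, female stem cells of a BL/6J x CAST-EiJ cross whose BL6 X chromosome bears a doxycycline-inducible Xist. Both also carry a SPEN degron (SPEN-AID), which removes SPEN when auxin is added. The 9 libraries are labelled without auxin, and the level of SPEN protein was not measured in these data. Untreated libraries of both lines, 5 and 4, serve as the background. The labels name 1 line for each construct, so the construct and the line cannot be told apart. The series text speaks of 4 biological replicates while the SPOC line has 5 libraries, and if some share a culture, p-values measure only the spread between these libraries.

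Xist is a long non-coding RNA that coats the X chromosome it is transcribed from and silences its genes. SPEN is a large RNA-binding repressor that reaches Xist through the A-repeat at the RNA's 5′ end. Its C-terminal SPOC domain binds NCoR co-repressors, which activate the histone deacetylase HDAC3. BglG, which comes from bacteria, binds a stem-loop and can bring a fused protein to RNAs that hold it. The comparison asks whether silencing of the BL6 X chromosome differs when a SPOC domain fused to BglG is present beside the cells' own SPEN. In these hybrid cells a read that crosses a strain difference can be given to a parent, so silencing shows as a fall of the BL6 share of X-linked reads.

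Each of the 9 libraries held 29034115 to 42531555 reads counted in genes, and 10000674 to 14894858 of them were assigned to a parent. Embryonic stem cell markers were high in both lines: the naive pluripotency list summed to 8146 to 8511 CPM (counts scaled by library size) in the SPOC line and 8063 to 8314 CPM in the GFP line. Markers of other cell types were present. Their called members stand beside 6.27% of all genes tested called higher and 6.65% called lower in the SPOC line. The mesoderm and definitive endoderm list summed to 28.1 to 31.99 CPM against 25.7 to 27.3 CPM, and Eomes was its 1 called member of 6 tested (log2 fold change 0.25). The trophoblast list summed to 87.5 to 130.8 CPM against 96.2 to 98.0 CPM, with Gata3 and Krt8 higher and Ascl2 lower among 8 tested. The primitive endoderm list summed to 808 to 863.8 CPM against 796.2 to 887.8 CPM, with Lamb1 lower among 14 tested. The neural list summed to 154.7 to 200.5 CPM against 170.3 to 198.2 CPM, with Pax6 higher among 5. The fibroblast list summed to 989.9 to 1116 CPM against 916.9 to 1133 CPM, with Col1a1 lower among 4. The lines overlapped in these last 3 sums and in the trophoblast sum. Y-linked genes summed to at most 0.0603 CPM. The part of these other-cell markers in the results below was not tested.

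The A-repeat is the stretch of Xist that SPEN binds, and repeated units of it are shown because the comparison turns on what Xist recruits. They were found by exact copies of 1 word, so any unit in which that word varies is not listed. In the first 1000 bases of the 17946-base Xist transcript of GENCODE M21 (GRCm38), GGATACCTG was the most frequent word of 9 bases that uses all 4 letters, with 6 copies on the transcript strand. The same window held that word in 443 of 141767 transcripts (0.312%), and in 1 of them, Xist, more than 1 time. The word was picked for its count in Xist, so the place of Xist in this search is not a finding. The gene lies at chrX:103460366-103483254 on the minus strand, and all 6 units are in exon 1. Each unit is printed with the 13 bases before the shared word, which is in capitals, so that the varying part can be seen beside the constant one.
Unit at chrX:103482876-103482897: ccatcggggccacGGATACCTG
Unit at chrX:103482758-103482779: ccatctgggctgtGGATACCTG
Unit at chrX:103482708-103482729: ccatcggggccatGGATACCTG
Unit at chrX:103482642-103482663: ccatcgggacctcGGATACCTG
Unit at chrX:103482597-103482618: ccaacggggcctcGGATACCTG
Unit at chrX:103482544-103482565: ccatcggggctgtGGATACCTG

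Xist itself was lower in the SPOC line. With doxycycline, the 5 SPOC libraries held 418.6, 406.6, 456.2, 333 and 305.9 CPM of Xist, and the 4 GFP libraries held 745.8, 917.6, 911.1 and 780.9 CPM. The groups did not overlap, and the lowest GFP library was above every SPOC library. The means were 384.1 ± 62.5 CPM (SD, n = 5) and 838.9 ± 88.4 CPM (SD, n = 4), which differed by an exact two-sided permutation test over libraries (p = 0.0159, the smallest that 126 splits can give). In edgeR's quasi-likelihood test across all genes the log2 fold change of Xist was -1.12 (SE 0.13, Benjamini-Hochberg adjusted p = 0.00202). In 1 edgeR model over all 27 libraries of the series the log2 fold change was the same and the adjusted p was 0.37. At least 99.1% of the Xist reads given to a parent came from BL6 in every one of the 9 libraries. So the lines differed in the silencing RNA as well as in the fusion, and the part of the Xist level in the X-linked differences below was not tested.

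Without doxycycline Xist was near 0 in most libraries. The GFP libraries held 5.41 to 7.78 CPM and 4 of the 5 SPOC libraries held 1.03 to 1.69 CPM. The library labelled SPOC untreated replicate 2 held 177.3 CPM of Xist, which goes against its label, and its BL6 share of the X was 40.5% where the other untreated libraries lay between 49.1% and 49.4%. The main results that use untreated SPOC cells are therefore given with and without it. The main edgeR tests and the allelic values of the 9 doxycycline libraries do not use it. The CPM of Xist, Tsix and Spen were scaled over 18 libraries that include it.

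Tsix, the antisense partner of Xist, did not differ in level (8.85 ± 1.72 against 8.93 ± 2.02 CPM, SD, n = 5 and 4, exact permutation p = 0.984). Whether the counting used strand was not stated, so reads of Xist and Tsix may not be fully separated where they overlap. Spen reads were more numerous in the SPOC line. They reached 369.9, 353.0, 358.7, 349.7 and 326.8 CPM there, and 202.3, 214.4, 192.7 and 177.8 CPM in the GFP line. The same difference stood without doxycycline, at 340.8 ± 11 against 173.2 ± 12.1 CPM (SD, n = 5 and 4, exact permutation p = 0.0159). Reads of the cells' own Spen and of a Spen-derived SPOC construct cannot be told apart in a count per gene. With doxycycline, of 8 genes in the NCoR and HDAC3 list, Spen was the 1 called, and Ncor1 (log2 fold change -0.06, edgeR adjusted p = 0.25) and Hdac3 (0.03, 0.633) did not pass the test.

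**Figure D1:**
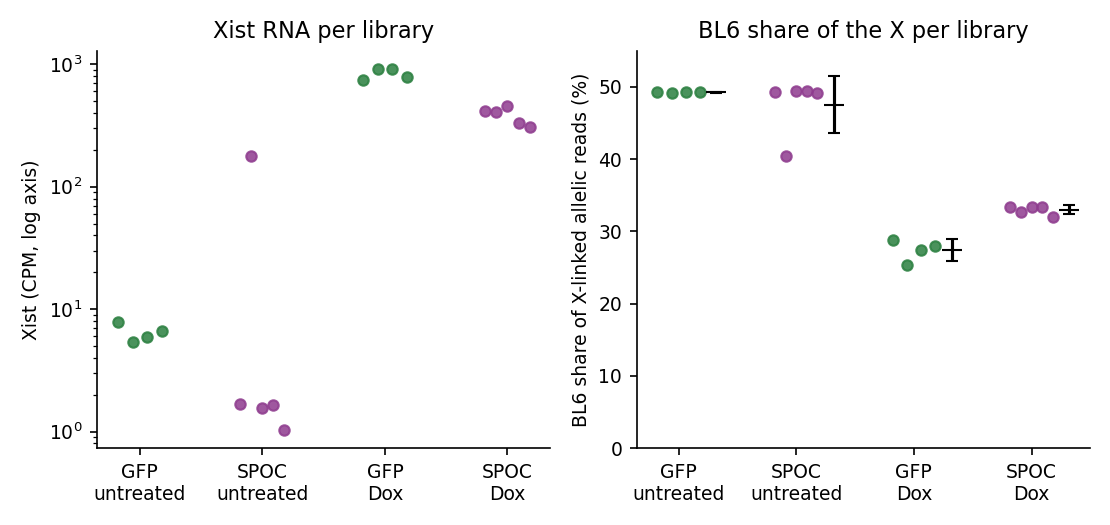
Xist in CPM on a log axis (left) and the BL6 share of X-linked allelic reads in percent (right), 1 point per library, with the mean and SD in black on the right. With doxycycline the SPOC libraries lie below the GFP libraries in Xist and above them in BL6 share, and 1 untreated SPOC library stands apart at 177.3 CPM and 40.5%.

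The BL6 X chromosome kept more of its expression in the SPOC line. With Xist and Tsix left out, BL6 reads made up 33.4%, 32.7%, 33.4%, 33.4% and 31.99% of X-linked allelic reads in the SPOC libraries. In the GFP libraries they made up 28.8%, 25.4%, 27.5% and 28.0%. Every SPOC library was above every GFP library. The means were 32.98 ± 0.614% (SD, n = 5) and 27.42 ± 1.46% (SD, n = 4), a difference of 5.55 percentage points (exact two-sided permutation p = 0.0159). Each share rests on 248503 to 325368 X-linked allelic reads, and the 95% Wilson interval of the lowest one, 25.4%, ran from 25.25% to 25.55% and covers counting error only. The difference was as large, 5.61 points, without genes known to escape silencing and genes of the X inactivation centre.

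Other chromosomes showed no such offset. The autosomal BL6 share was 49.88% in both lines, and the means of the 2 lines differed by at most 0.19 percentage points on any autosome. Chromosome 16 had a BL6 share of 34.4% to 34.7% in all 9 libraries, in both lines alike. The X chromosome was also balanced before Xist was induced, at 49.22 ± 0.0902% in untreated GFP cells (n = 4). Untreated SPOC cells had 47.5% with all 5 libraries and 49.3 ± 0.123% without replicate 2 (n = 4).

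Set against autosomal reads, the 2 X chromosomes could be read apart. The BL6 X gave 8.44 ± 0.213 reads per 1000 autosomal allelic reads in the SPOC line and 6.30 ± 0.436 in the GFP line (SD, n = 5 and 4), a ratio of 1.34 (exact permutation p = 0.0159). The CAST X, which does not carry the inducible Xist, gave 17.15 ± 0.0729 and 16.66 ± 0.132, a ratio of 1.03 with no overlap between the lines (exact permutation p = 0.0159). The line difference was 2.14 reads per 1000 on the BL6 X and 0.49 on the CAST X. Relative to untreated cells of the same line, the BL6 X kept 37.8% of its reads in GFP cells and 53.03% in SPOC cells, or 49.7% when SPOC untreated replicate 2 is left out. The CAST X kept 96.8% in GFP cells and 98.6% in SPOC cells, or 98.3% without that library. BL6 X-linked reads were thus lower with doxycycline in both lines, and the level that remained was higher in the line with the SPOC fusion.

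**Figure D2:**
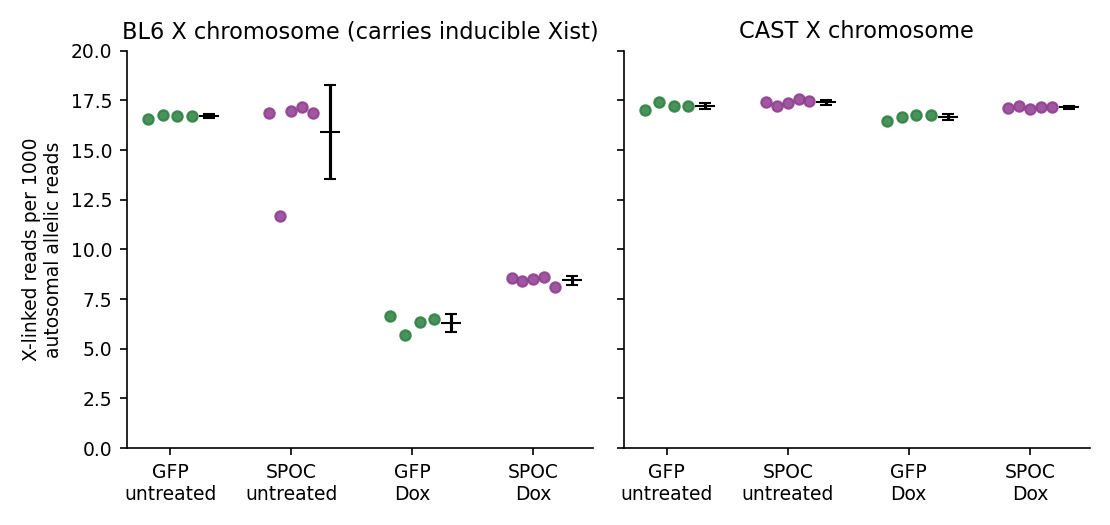
X-linked reads from the BL6 chromosome (left) and the CAST chromosome (right) per 1000 autosomal allelic reads, 1 point per library, with the mean and SD in black. With doxycycline the BL6 X of the SPOC line averages 8.44 against 6.30 in the GFP line, while the CAST X lies between 16.5 and 17.2 in all 9.

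Total counts of single genes differed on the X as well. Of 17354 genes tested with edgeR, 1088 (6.27%) were higher and 1154 (6.65%) lower in the SPOC line at an adjusted p of 0.05. On the X, 270 of 664 genes (40.7%) were higher and 8 lower, against 817 higher (4.90%) and 1145 lower (6.87%) of 16667 autosomal genes. The median log2 fold change was 0.21 over X-linked genes and 0.00 over autosomal genes, and the medians of single autosomes lay between -0.01 and 0.03. The X-linked output of each library, the X-linked minus autosomal median of centred log2 CPM, was -0.15 in the SPOC line and -0.37 in the GFP line (exact permutation p = 0.0159). The counts over all genes depend on single libraries. Without GFP replicate 1 they were 630 higher and 729 lower, without GFP replicate 2 the lower count was 755, and without GFP replicate 3 the higher count was 704. The X-linked count stayed between 221 and 278 higher under any 1 library left out.

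**Figure D3:**
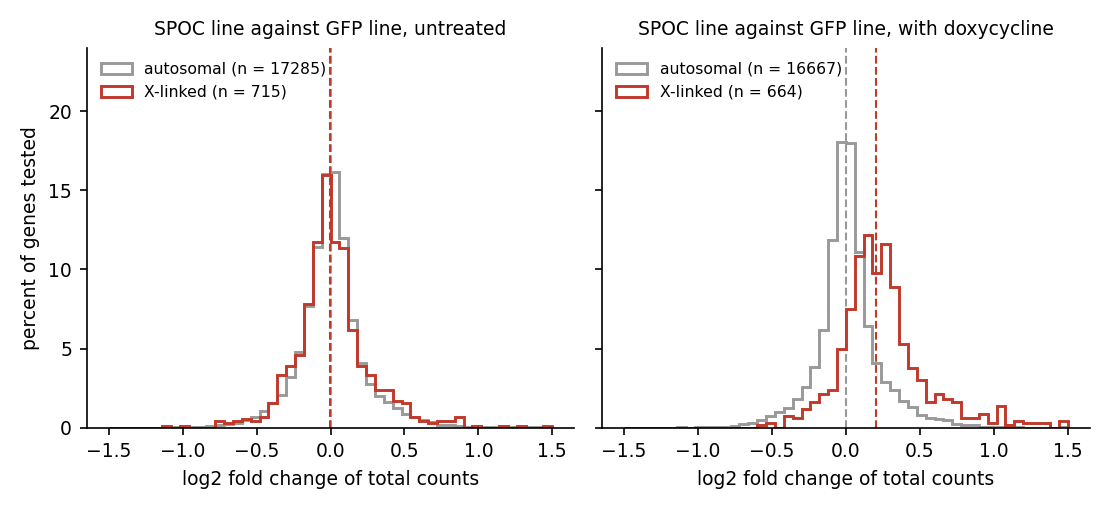
Share of genes (percent) by log2 fold change of total counts, SPOC line against GFP line, untreated (left) and with doxycycline (right), for autosomal genes (grey) and X-linked genes (red), with dashed medians and values beyond 1.5 drawn at the edge. With doxycycline the X-linked median lies at 0.21 and the autosomal one at 0.00, while untreated, with all libraries used, both lie near 0.

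Several X-linked genes named for the size of their rise had low levels. Klhl34, a BTB-Kelch family gene, was at 1.74 to 2.14 CPM in the SPOC libraries and 0.707 to 0.892 CPM in the GFP libraries (log2 fold change 1.26, SE 0.15, edgeR adjusted p = 8.04e-05). Rhox1, a homeobox gene of the reproductive Rhox cluster, was at 6.16 to 6.69 CPM against 3.13 to 4.27 CPM. Xlr, from the lymphocyte-regulated family whose copies resemble each other, was at 5.28 to 7.16 CPM against 2.93 to 3.76 CPM. Usp26, a deubiquitinase of the testis, was at 12.1 to 20.9 CPM against 7.26 to 9.29 CPM, and Cnksr2, a scaffold of Ras signalling, at 6.25 to 7.08 CPM against 2.77 to 4.43 CPM. These 5 genes were picked among called genes without overlap between the lines, so their lack of overlap is not a finding. Xlr and Rhox1 have close relatives on the X, so reads could be shared between copies.

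Egfl6, a secreted protein with EGF repeats, held 19.5, 18.4, 29.99, 17.9 and 16.8 CPM in the SPOC libraries. The GFP libraries held 11.4, 8.86, 10.4 and 9.75 CPM (log2 fold change 1.03, SE 0.18, edgeR adjusted p = 0.00777). SPOC replicate 3 stood above the rest, and the other 4 SPOC libraries were also above all GFP libraries. Firre, a long non-coding RNA locus that helps to anchor the inactive X, held 31.2, 33.7, 31.3, 30.01 and 30.6 CPM against 17.1, 15.7, 17.8 and 16.2 CPM. Its log2 fold change was 0.91 (SE 0.05, edgeR adjusted p = 4.55e-08). Egfl6 and Firre were picked under the same condition of no overlap between the lines.

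Of 45 broadly expressed X-linked genes in the housekeeping list, 19 were higher and 3 lower in total counts. Their median log2 fold change was 0.11, beside 0.21 over all X-linked genes, of which 40.7% were higher. Lamp2, a lysosomal membrane protein, was at 81.6 to 89.7 CPM against 60.9 to 67.6 CPM (log2 fold change 0.41, edgeR adjusted p = 1.54e-05). Rbmx, an RNA-binding protein of splicing, rose by 0.48 (adjusted p = 0.00173), Pdha1, a subunit of pyruvate dehydrogenase, by 0.15 (0.0131), and Hprt, the purine salvage enzyme, by 0.14 (0.00389). The lower members were Atrx, a chromatin remodeller (-0.20, 0.00029), Taf1, a subunit of TFIID (-0.21, 0.000745), and Flna, an actin cross-linker (-0.13, 0.0348). The Flna call was lost in 6 of 9 fits that left out 1 library, with an adjusted p of up to 0.11 without GFP replicate 2. In the model over 27 libraries the adjusted p was 0.059 for Hprt, 0.088 for Atrx and 0.39 for Flna.

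X-linked regulators of the stem cell state were higher in 7 of 15 and lower in none (median 0.17), beside 40.7% and a median of 0.21 over all X-linked genes. Sox3, a SoxB1 transcription factor, was at 9.89 to 11.7 CPM in the SPOC line and 6.59 to 7.5 CPM in the GFP line (log2 fold change 0.60, SE 0.07, edgeR adjusted p = 9.42e-05). Elk1, an ERK-responsive transcription factor, rose by 0.25 (adjusted p = 0.000825), and Tfe3, which opposes exit from pluripotency, by 0.17 (0.00489). Nr0b1, a nuclear receptor of naive cells, had a log2 fold change of 0.04 that did not pass the test (0.602). Sox3 was also higher without doxycycline (0.28, adjusted p = 0.0246, or 0.37 and 0.00114 without SPOC untreated replicate 2).

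Genes that escape silencing in many female mouse cells were higher in 7 of 14 and lower in none (median 0.13), beside the same 40.7% and 0.21. Shroom4, an actin-binding protein, was at 22.7 to 27.1 CPM against 17.4 to 19.8 CPM (log2 fold change 0.47, edgeR adjusted p = 0.000109). Usp9x, a deubiquitinase, rose by 0.23 (adjusted p = 0.00799), Ddx3x, an RNA helicase, by 0.14 (0.00254), and Kdm5c, a histone H3K4 demethylase, by 0.11 (0.0186). The Kdm5c call was lost without GFP replicate 4 (adjusted p = 0.072), 1 of 2 such libraries. In the model over 27 libraries the adjusted p was 0.097 for Usp9x and 0.16 for Kdm5c. Kdm6a, a histone H3K27 demethylase, had a log2 fold change of 0.05 (0.302). Ddx3x differed by as much without doxycycline (0.19, adjusted p = 0.000248).

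Allelic counts located the difference gene by gene. The BL6 to CAST ratio of each gene was tested within libraries for 11845 genes with at least 20 allelic reads in each of the 9 libraries. Of these, 272 (2.30%) had a higher ratio in the SPOC line and 55 (0.464%) a lower one. X-linked genes made up 396 of the genes tested, and 213 of them (53.8%) were higher and 7 lower. The median log2 difference of the ratio was 0.56 over X-linked genes and 0.00 over autosomal genes. In 351 of the 396 genes the mean BL6 share was above that of the GFP line. The shares of the 2 lines did not overlap in 224 genes higher and 7 lower in the SPOC line. The log2 ratio difference was above 0 in 88.9% of X-linked genes and in 49.8% of autosomal genes.

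The median share per gene was 30.7% in the SPOC line and 23.6% in the GFP line. Genes with a BL6 share under 10% numbered 41 in SPOC cells and 67 in GFP cells, and 18 and 17 without doxycycline. Those at 40% or more numbered 100 and 54. Before doxycycline, 319 and 328 genes were at 40% or more, so most X-linked genes were below 40% in both lines with doxycycline, and more of them in the GFP line. Of the 198 genes of this set that were higher in total counts, 139 also had a higher ratio, which is 70.2% of the former and 65.3% of the 213 latter.

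**Figure D4:**
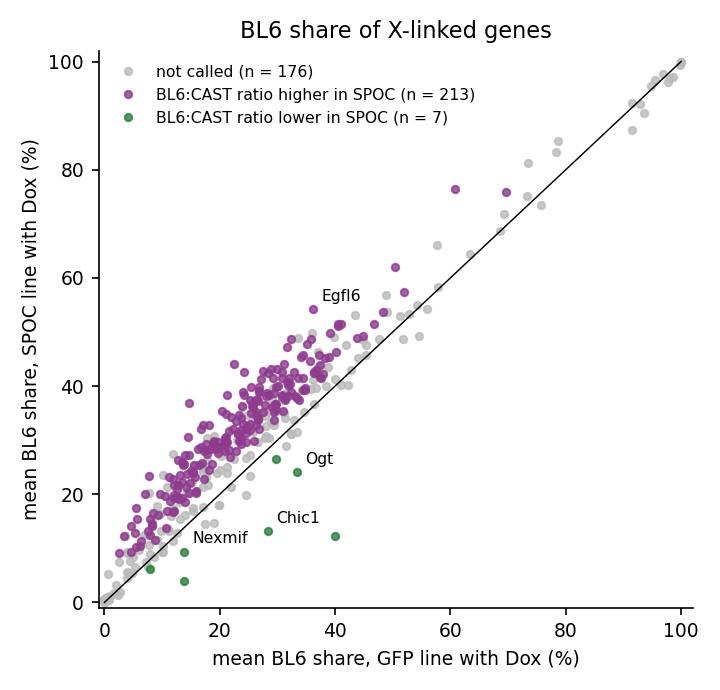
Mean BL6 share of 396 X-linked genes with doxycycline, GFP line (horizontal axis, percent) against SPOC line (vertical axis, percent), 1 point per gene, with the line of equal shares. The cloud lies above that line, with 213 genes called higher (purple) and 7 called lower (green), among them Chic1 and Ogt.

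The most-read X-linked genes gave precise shares. Pdha1 had BL6 shares of 49.3%, 46.9%, 50.2%, 47.9% and 49.1% in the SPOC libraries and 36.5%, 35.2%, 34.3% and 37.1% in the GFP libraries, from 3555 to 4524 reads each. The lines did not overlap (log2 ratio difference 0.77, SE 0.03, edgeR adjusted p = 1.76e-35). Uba1, the ubiquitin-activating enzyme, had 46.2 ± 0.748% against 40.2 ± 1.1% (SD, n = 5 and 4, edgeR adjusted p = 2.24e-22). Prps1, of nucleotide synthesis, had 23.2% against 15.6%, and Alg13, of protein glycosylation, 39.8% against 29.8%. Usp9x had 45.7% against 37.3%. All 5 passed the test, and the adjusted p of Prps1 was 0.057 in edgeR with a replicate block.

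Nr0b1 differed by allele but did not pass the test in total counts. Its BL6 share was 14.2%, 14.3%, 10.8%, 14.5% and 12.4% in SPOC cells and 7.98%, 6.28%, 7.72% and 8.41% in GFP cells, without overlap (log2 ratio difference 0.90, edgeR adjusted p = 0.0137, or 0.051 without GFP replicate 3). Klhl13, a ubiquitin ligase adaptor linked to MAPK signalling, had 51.4% against 46.8% (adjusted p = 0.000148, or 0.17 with limma on log2 ratios). Rps4x, a ribosomal protein read 9938 to 14065 times, was near balance in both lines at 48.6% and 47.7% (0.0976), and Dkc1, of telomerase and ribosomal RNA modification, had 35.2% and 34.7% (0.786).

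The largest share differences were in less-read genes. Cd99l2, a membrane adhesion protein, had BL6 shares of 34.6%, 42.1%, 36.4%, 43.9% and 27.7% against 22.2%, 14.6%, 11.2% and 10.9%, from 52 to 89 reads a library (edgeR adjusted p = 4.97e-07). Firre had 42.7 ± 3.15% against 24.1 ± 4.1%, and Egfl6 had 54.2 ± 3.38% against 36.1 ± 4.72% (SD, n = 5 and 4). Acot9, a mitochondrial thioesterase, had 38.4% against 21.2%, Trap1a, a tumour-antigen gene, 48.7% against 32.3%, and Maoa, monoamine oxidase A, 32.8% against 17.1%. The lines did not overlap in any of these 6 genes, which were picked for this difference. A higher share without overlap was seen in 224 of the 396 X-linked genes tested, so it is not particular to them.

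Within the escape list, 7 of 12 genes tested had a higher ratio and none a lower one, beside 53.8% higher over all X-linked genes tested. Kdm5c had BL6 shares of 36.5% to 38.2% in SPOC cells and 32.02% to 34.79% in GFP cells (log2 ratio difference 0.23, edgeR adjusted p = 6.28e-06, or 0.088 with limma on log2 ratios). Ddx3x had 41.6% against 37.4% (3.39e-11). Kdm6a was near balance in both lines, at 53.4% and 52.8% (0.946). The housekeeping list had 25 higher and 1 lower of 41, and the stem cell regulators had 8 higher and none lower of 13, to be read against the same 53.8%.

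The difference was not even along the chromosome. Genes more than 10 Mb from Xist had a median share difference of 6.99 percentage points, and 197 of 331 had a higher ratio. Between 3 and 10 Mb the median was 4.91 points, with 14 of 30 higher. Between 1 and 3 Mb it was 0.28 points, with 2 higher and 3 lower of 28, and within 1 Mb it was -1.79 points, with none higher and 3 lower of 7. Total counts followed the same order, with a median log2 fold change of 0.24 beyond 10 Mb, 0.23 at 3 to 10 Mb, 0.02 at 1 to 3 Mb and -0.01 within 1 Mb. These distance limits were set after the values were seen, and no test was made across them. In the GFP line genes within 3 Mb had low shares already, with a median of 13.8% within 1 Mb and 17.8% at 1 to 3 Mb against 24.7% beyond 10 Mb.

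**Figure D5:**
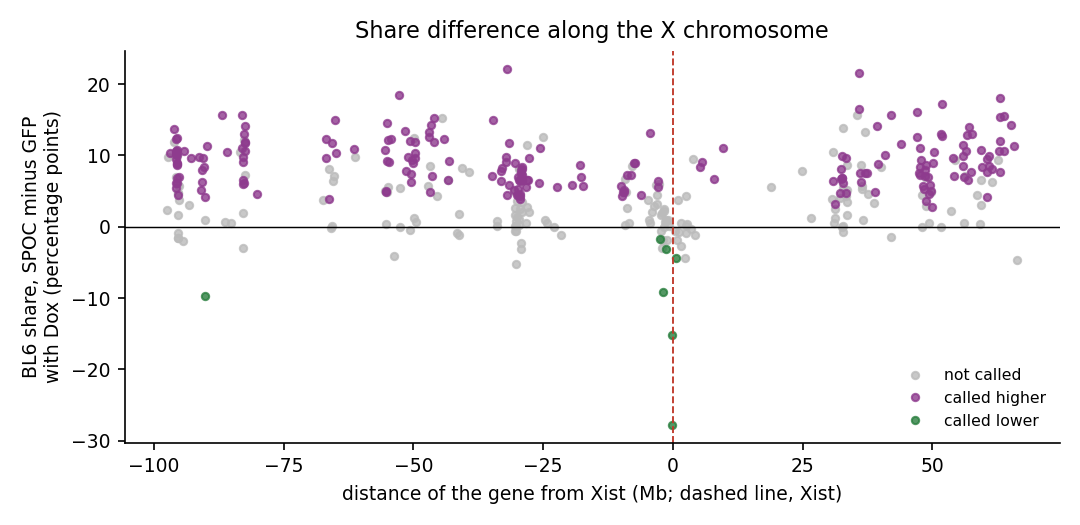
Difference of the mean BL6 share, SPOC minus GFP line with doxycycline (percentage points), of 396 X-linked genes by distance from Xist in Mb, 1 point per gene (purple, called higher; green, called lower; grey, not called). Most genes lie above 0, while the median of the 7 genes within 1 Mb of Xist is -1.79 points and that of the 28 genes at 1 to 3 Mb is 0.28 points.

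Near Xist, several genes went the other way. Chic1, a palmitoylated membrane protein gene 0.0955 Mb from Xist (chrX:103356476-103396092), had BL6 shares of 16.04%, 13.3%, 10.5%, 16.1% and 9.97% in SPOC cells. GFP cells had 28.97%, 26.8%, 28.6% and 28.9%, all above the SPOC libraries (log2 ratio difference -1.38, SE 0.12, edgeR adjusted p = 1.13e-17). Untreated cells had 52.5% and 55.6%, or 57.6% in SPOC cells without replicate 2. The total count of Chic1 was lower as well, at 30.4, 29.96, 30.6, 30.8 and 27.5 CPM against 44.8, 39.2, 42.1 and 45.2 CPM (log2 fold change -0.52, SE 0.05, adjusted p = 9.32e-06). It was lower without doxycycline too (-0.28, adjusted p = 0.0349, or -0.19 and 0.00922 without SPOC untreated replicate 2).

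Ogt, the O-GlcNAc transferase 1.81 Mb from Xist (chrX:101640060-101684351), had 23.7%, 25.6%, 22.1%, 26.1% and 23.1% against 32.8%, 32.6%, 33.6% and 34.3%. The lines did not overlap (log2 ratio difference -0.66, SE 0.05, edgeR adjusted p = 6.44e-21). Nexmif, a neuronal gene 0.667 Mb away, had 9.38% against 13.8% (0.00379, or 0.071 without GFP replicate 1), and Slc7a3, a cationic amino acid transporter, 6.16% against 7.84% (0.00329, or 0.1 without GFP replicate 1). Ercc6l, a mitotic helicase, had 26.5% against 29.7% (0.0386), a call lost in 6 of 9 fits without 1 library (0.32 without GFP replicate 1). With limma on log2 ratios the adjusted p was 0.36 for Nexmif, 0.27 for Slc7a3 and 0.29 for Ercc6l. The transcribed pseudogene 4930519F16Rik had 12.25% against 40.04%. The remaining gene called lower, the pseudogene Llph-ps2 at 90.2 Mb, was read 45 to 62 times a library, and its reads could be shared with its parent gene. The count of 7 was 4 without GFP replicate 1.

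Tsix, left out of the X-linked counts, had a BL6 share of 16.2 ± 4.14% against 34.5 ± 3.66% (SD, n = 5 and 4, log2 ratio difference -1.46, edgeR adjusted p = 2.88e-05), from 62 to 101 allelic reads. Its total level was alike in both lines, as given above. Rlim, a ubiquitin ligase that activates Xist, lies 0.497 Mb away and had 11.4% against 11.9% (0.989). Atrx had 14.64% against 19.04% (0.0797) and no overlap between the lines, and it was called without GFP replicate 2 (log2 ratio difference -0.53, adjusted p = 4.8e-16).

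Of the 8 X-linked genes with lower total counts, 6 lay within 3 Mb of Xist: Chic1, 4930519F16Rik, Gm3880, Foxo4, Taf1 and Atrx. The others were Flna and Gm364. Of the 664 X-linked genes tested, 15 lay within 1 Mb of Xist and 44 at 1 to 3 Mb. The limit of 3 Mb was set after the values were seen. Foxo4, a forkhead transcription factor, had a log2 fold change of -0.10 (edgeR adjusted p = 0.0404), a call lost in 7 of 9 fits without 1 library (up to 0.1 without GFP replicate 1) and in the model over 27 libraries (0.3). All 8 had a negative log2 fold change in untreated cells too, and 5 of them were called there (4 without SPOC untreated replicate 2).

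Without doxycycline, X-linked genes did not stand apart when all SPOC libraries were used. Of 18024 genes tested, 1186 (6.58%) were higher and 1322 (7.33%) lower in untreated SPOC cells, and on the X 38 were higher and 37 lower of 715, with a median of -0.01. Leaving out SPOC untreated replicate 2 gave 71 higher and 24 lower and a median of 0.05. Among the remaining untreated libraries, X-linked output was 0.285 to 0.307 in SPOC cells and 0.245 to 0.266 in GFP cells. BL6 X reads per 1000 autosomal allelic reads were 16.87 to 17.15 against 16.55 to 16.78, and CAST X reads 17.39 to 17.58 against 17.01 to 17.4. The lines thus did not overlap in X-linked output or BL6 X reads. Leaving out other single untreated libraries moved the higher count to between 19 and 24 for SPOC replicates 4 (20) and 5 (19) and GFP replicates 1 (19), 2 (20) and 4 (24). The lower count was 22, 18 and 23 without GFP untreated replicates 1, 2 and 3. Of the 270 X-linked genes higher with doxycycline, 26 were also higher untreated (9.63% of the former and 70.3% of the 37 latter tested in both), or 59 without SPOC untreated replicate 2.

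The test of the difference between these differences, the line by doxycycline interaction, called 42 genes higher (0.233%) and 3 lower (0.0166%) of 18024. X-linked genes made up 39 of the 42 and none of the 3, with 275 of 715 X-linked genes higher and 3 lower at an unadjusted p under 0.05. The X-linked median was 0.22, or 0.18 without SPOC untreated replicate 2, when 52 genes were called higher, 49 of them X-linked, and 3 lower, 1 of them X-linked. Klhl34 led the rises, falling with doxycycline from 3.65 to 0.819 CPM in GFP cells and from 4.06 to 1.98 CPM in SPOC cells (interaction 1.11, SE 0.17, edgeR adjusted p = 0.0025). Shroom4 (0.63, adjusted p = 0.0025), Syn1, a synaptic vesicle protein (0.54, 0.0025), and Rp2, a regulator of cilium protein traffic (0.48, 0.0032), were also called. Without SPOC untreated replicate 2 the interaction of Klhl34 was 1.05 (adjusted p = 0.00252).

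Many autosomal differences between the lines were also called without doxycycline. Of 817 autosomal genes higher with doxycycline, 374 were also higher untreated. That is 45.8% of the former and 32.9% of the 1136 latter tested in both. Of 1145 lower genes, 570 were also lower untreated (49.8% and 44.6% of 1279). Without SPOC untreated replicate 2 these overlaps were 321 and 583. The untreated comparison was fitted in a model that also held the doxycycline libraries. The calls that overlap therefore do not come from independent tests.

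Ptprm, a receptor tyrosine phosphatase, was at 3.95 to 5.36 CPM in SPOC cells and 1.98 to 2.52 CPM in GFP cells with doxycycline (log2 fold change 1.11, SE 0.12, edgeR adjusted p = 2.88e-05), and untreated the difference was 0.58. Olfr316, an olfactory receptor gene, rose by 1.04 and Crygd, a lens crystallin, by 0.99, each also called untreated (0.54 and 0.97). Emp3, a membrane protein, fell by 1.19 and Igtp, an interferon-induced GTPase, fell by 1.12, and both were lower untreated (-0.90 and -1.01). Duox1, a hydrogen peroxide-producing oxidase, went against this. It rose with doxycycline from 0.22 to 3.87 CPM in GFP cells and from 0.372 to 1.63 CPM in SPOC cells (interaction -2.03, SE 0.35, edgeR adjusted p = 0.0061, or -1.80 and 0.0234 without SPOC untreated replicate 2).

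Counts for the autosomal gene groups stand beside the 4.90% of autosomal genes called higher and 6.87% called lower. The DNA methylation list had 2 lower of 8 and none higher (median -0.11). Dnmt3b, a de novo DNA methyltransferase, held 249.6, 235.8, 228.2, 237.8 and 237.1 CPM against 335.2, 345.1, 341.8 and 345.4 CPM (log2 fold change -0.52, SE 0.03, edgeR adjusted p = 2.76e-08). It was lower untreated as well (-0.41, adjusted p = 2e-05). Dnmt1, the maintenance enzyme, fell by 0.12 on the log2 scale (adjusted p = 0.0108). Of genes of the transient 2-cell-like state, 7 of 17 were lower and none higher (median -0.49), with Sp110 at 2.23 to 3.2 CPM against 3.68 to 4.03 CPM, and 3 were called lower untreated. The other members called lower with doxycycline were Zscan4a, Zscan4b, Zscan4c, Zscan4f, Usp17lb and Usp17lc. Reads could be shared between copies of these families, so the members need not be separate observations.

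Of p53 targets, 6 of 16 were lower and none higher (median -0.12), among them Cdkn1a, the p21 inhibitor of cyclin-dependent kinases (-0.24, edgeR adjusted p = 0.00849). Of naive pluripotency genes, 3 of 17 were higher and 1 lower, with a median of 0.00. Klf2, a naive transcription factor, rose by 0.17 (adjusted p = 0.00171). Sox2 (0.09, 0.0394), Dppa5a (0.12, 0.0292) and the Nodal co-receptor Tdgf1 (-0.13, 0.0198) were called. These calls were lost in 7, 6 and 2 of 9 fits without 1 library. There the adjusted p reached 0.12 (GFP replicate 3), 0.091 (GFP replicate 2) and 0.065 (GFP replicate 1). In the model over 27 libraries it was 0.082, 0.069 and 0.38. The other lists counted were formative genes (1 higher and 1 lower of 11), ERK feedback (1 and 2 of 12), Polycomb (1 and 1 of 11), Notch targets (2 and 1 of 11), Xist-binding and RNA methylation factors (2 and 1 of 14), imprinted genes (2 and 4 of 28), germline genes (1 and 1 of 12), cholesterol synthesis (2 and 1 of 21) and heat shock (1 and 2 of 12).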

How the data were processed

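Total RNA libraries (TruSeq, HiSeq2500, PE100) were trimmed with Trim Galore 0.4.4, aligned to mm10 with STAR 2.5.3a and counted with featureCounts, and Picard 2.18.2 and DESeq2 1.18.1 were also used, per the submitters' processing notes. The authors deposited raw read counts per gene in total, and allelic counts for BL6 and CAST, and 27 columns of other per-sample values were not used. None of the 27 allelic column pairs fits the total column its name gives. Each was therefore given to the 1 total column that is never below BL6 + CAST; the next best total was below it in at least 1303 genes.

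Counts were tested in R 4.3.3 with edgeR 4.0.16 (TMM, filterByExpr, robust quasi-likelihood test, Benjamini-Hochberg adjusted p of 0.05), over the 9 doxycycline libraries, or over 18 for untreated cells and the interaction. Xist, Tsix and Spen CPM are scaled over 18 libraries, other doxycycline CPM over 9 and untreated CPM over 18. X-linked output used genes averaging 1 CPM or more over the 18 libraries (prior count 2), each centred on its mean over them, SPOC untreated replicate 2 included. Allelic ratios were fitted with a term per library, and single values by exact permutation (scipy 1.17.1). Gene positions are from GENCODE M21 (GRCm38; 53706 of 53801 IDs). The edgeR fits of total counts, allelic ratios and the interaction were tested on simulated data, and other steps were not. Alternatives covered 1 model over all 27 libraries, size factors, DESeq2 1.42.0, limma 3.58.1, low-count filters, coverage minimums, a replicate block and leaving out each library. Members and lists were chosen with earlier results of these data known. Named genes are list members and those with the largest called changes, averaging 1 CPM or more, with no overlap between libraries, without predicted genes and pseudogenes; genes in counts of 8 or fewer were also named, after their values were seen. No pair of libraries within a group agreed within sampling noise (chi-square per gene of at least 2.80).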

Additional observations from a re-analysis of the deposited data

Results flagged for a closer look

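Samples far from the rest of their group were looked for with Dixon's test in 114 groups of values, and 10 were found, where chance gives about 1 in 20 groups. SPOC untreated replicate 2 was far from the other untreated SPOC libraries in 4 values: Xist at 177 CPM, X-linked output at 0.0319 on the log2 scale, a BL6 share of the X of 40.5% and 11.7 BL6 X-linked reads per 1000 autosomal allelic reads. GFP doxycycline replicate 2 had the lowest X-linked output of its group, at -0.405. Single genes apart in 1 library were Chic1 (27.5 CPM in SPOC replicate 5), Egfl6 (30 CPM in SPOC replicate 3), Duox1 (4.45 CPM in GFP replicate 3), Crygd (16 CPM in SPOC replicate 3) and Tdgf1 (498 CPM in GFP replicate 4), all with doxycycline.

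The line difference with doxycycline was other than that without it in 42 genes that were higher and 3 that were lower by edgeR's interaction test. Among the higher ones, the log2 interaction was 1.11 for Klhl34, 0.658 for Nudt10, 0.63 for Shroom4, 0.537 for Syn1, 0.53 for Mospd1, 0.521 for Tspan7, 0.48 for Tceanc and 0.476 for Rp2, all X-linked. The Mospd1 call was lost in 15 of 18 fits without 1 library. Its adjusted p rose from 0.037 to up to 0.1 (without GFP untreated replicate 2). The Tceanc call was lost in 5 of 18 such fits, and its adjusted p rose from 0.023 to up to 0.082 (without GFP doxycycline replicate 3). The 3 lower genes are autosomal: Duox1 at -2.03, Srarp at -0.705 and Shf at -0.336. The Srarp call was lost in 5 of 18 fits without 1 library (adjusted p of up to 0.066 without GFP doxycycline replicate 3) and without the low-count filter (0.07). The Shf call was lost in 12 of 18 such fits (up to 0.15 without GFP untreated replicate 2) and with DESeq2 size factors (0.05).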

How the results depend on the processing

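The X-linked differences in total counts, BL6 share and BL6 to CAST ratio kept their direction in every alternative run except 1. With the allelic columns taken by their own names, the BL6 share difference became -9.78 percentage points (exact permutation p = 0.0952) and the X-linked median ratio -0.622, and edgeR called 0 genes in either direction (585 at an unadjusted p under 0.05). Single genes then read -0.813 for Acot9, -0.899 for Firre, -1.06 for Egfl6, -1.38 for Trap1a, -0.714 for Pdha1, -0.235 for Uba1, -0.357 for Usp9x, -0.304 for Rps4x, -0.269 for Dkc1, -1.63 for Nr0b1, -0.794 for Alg13, -0.186 for Klhl13, -1.02 for Prps1, -0.271 for Ddx3x, -0.44 for Kdm5c, -0.0692 for Kdm6a, -0.885 for Cd99l2 and -0.464 for Maoa. Those columns exceed the totals of the same name in 1303 to 5292 genes.

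Limma on log2 ratios called 141 genes higher and 13 lower (X-linked 128 and 3). With the replicate block limma called 0 in either direction, on or off the X, where 1072 genes, 262 X-linked higher and 11 lower, had an unadjusted p under 0.05 and the X-linked median was 0.555. edgeR with the replicate block, added after seeing the data, called 266 higher and 57 lower. Libraries of equal replicate number had correlations of deviations of 0.144, 0.374, 0.0774 and 0.0733, all positive. Unequal numbers gave -0.353 to 0.278, and SPOC replicate 1 correlated best with GFP replicate 4 (0.278). Whether equal numbers mark a shared batch was not tested, and the main tests did not use them. The replicate block raised the interaction to 95 higher and 30 lower (X-linked 76 higher). Without the low-count filter the interaction was 65 and 6 and the X-linked lower count with doxycycline 15.

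Leaving out 1 library gave, with doxycycline, 630 to 1322 genes higher and 729 to 1555 lower. Untreated it gave 590 to 1329 higher and 787 to 1454 lower, X-linked 19 to 71 and 18 to 45, with X-linked medians of -0.019 to 0.0465. For the interaction it gave 1 to 10 genes lower, 0 to 1 of them X-linked, and medians of 0.179 to 0.238, and for the ratio 4 to 9 X-linked genes lower. The cause of these shifts was not tested. Tsix, which was not called, turned to 0.0587 with the block and ranged from -0.152 to 0.0889 without single libraries, and the Rlim ratio to 0.00766 with the edgeR block and ranged from -0.16 to 0.0804 without single libraries. Of the other values of named genes, 1157 kept their call, 124 lost it and 1 gained it. With 4 GFP libraries and allelic reads at about 34.1 to 35% of the total, genes under 100 allelic reads a library have imprecise shares.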
